A study of Oryctolagus cuniculus with 20 samples.

Results

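Ion channels are membrane proteins that let potassium, sodium, calcium or chloride cross a membrane, and each is built from pore-forming subunits with auxiliary subunits beside them. In chondrocytes, which fire no action potentials, potassium and chloride channels take part in setting the membrane potential and cell volume, and calcium entry is part of the response to load and to osmotic change. The genes described here are those of ion channel subunits: every gene whose array name, or symbol in the probe description, begins with KCN, SCN, CACN, HCN, CLCN or TRP. This rule found 39 genes with 89 probes among the 43603 probes of the array, of which 2386 carry a gene name here for 817 genes, and it used no measured value.

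Cartilage of the mandibular condyle was profiled in rabbits (Oryctolagus cuniculus), all male and 6 months old, on 20 one-colour arrays. The 5 groups of 4 were untreated rabbits, the control, and rabbits taken 1, 2, 4 or 8 weeks after surgical internal derangement of the left temporomandibular joint, the joint between jaw and skull. No group was sham-operated, and the same control, which is labelled with no time, serves every comparison, so the operation itself and the derangement cannot be told apart. The study asked how the cartilage transcriptome responds over these weeks.

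Levels are log2 units from each array's 75th percentile of signal, a difference of 1 unit being a 2-fold difference. A probe entered the tests if the scanner software marked it as well above background on 3 or more arrays of any group, and a gene's value is its brightest such probe. A call is an adjusted p under 0.05 in limma over the 26905 probes tested. Because probes bind differently, levels are not compared between genes.

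The arrays had 75th percentiles of 174.1 to 641.8 signal units, and 49.05% to 66.4% of their spots were well above background. Each group lay on a slide of its own, so slide and group cannot be told apart. The control and 2-week arrays were scanned on the same day and the 1-, 4- and 8-week arrays on another, so scan day and the difference from control at 1, 4 and 8 weeks cannot be told apart. Skeletal muscle genes stood apart on the control arrays: the median level of the 11 tested genes of that list was 2.12, 4.20, -1.47 and -1.88 on control replicates 1 to 4 and -5.60 to -2.81 on the 16 operated arrays. Of 12 hyaline cartilage markers only CNMD and SOX9 had a named probe. CNMD was well above background on all 20 arrays, whereas SOX9 was so on no control or 2-week array, on 4 arrays at 1 week and on 2 each at 4 and 8 weeks. SOX9 was called higher than control at 1 week (at least 1.99-fold, adjusted p 0.0192), and CNMD differed by 2.31 at 1 week and 2.39 at 4 weeks without a call (adjusted p 0.0749 and 0.0866). Of other marker lists, the 4 tested macrophage genes had 1, 0, 4 and 1 calls at 1, 2, 4 and 8 weeks, all lower than control (medians -0.90, -0.67, -1.67 and -1.0), and 1 of 2 smooth muscle genes was lower at 4 weeks. The single adipocyte gene tested, LEP, was higher at 1, 4 and 8 weeks, and the tested endothelial (3), erythroid (2), T cell (1) and nerve (1) genes had no call against control. What part these cell types had in the results below was not tested. In bulk tissue, fewer cells of a type and less RNA per cell cannot be told apart.

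The probes behind the results are shown first, because for several genes the outcome depended on which probe of the gene was read. These are the 60-base probes of 5 of the called genes, in lower case, named by the first base of the probe in its transcript.
CACNA1E 6697: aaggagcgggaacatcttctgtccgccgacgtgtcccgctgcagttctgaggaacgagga
KCNC1 157: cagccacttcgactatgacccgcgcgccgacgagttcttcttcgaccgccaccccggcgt
KCNE1 298: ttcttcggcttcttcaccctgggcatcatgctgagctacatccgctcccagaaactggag
KCNA3 758: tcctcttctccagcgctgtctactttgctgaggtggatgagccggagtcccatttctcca
KCNK1 799: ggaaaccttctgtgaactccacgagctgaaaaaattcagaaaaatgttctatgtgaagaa

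The next probes overlap a neighbour on the same transcript, and capitals mark the bases that both probes hold. They are shown because neighbours that share 19 to 59 of 60 bases gave different signals.
SCN9A 5813: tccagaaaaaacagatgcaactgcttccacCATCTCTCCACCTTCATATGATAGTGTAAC
SCN9A 5843: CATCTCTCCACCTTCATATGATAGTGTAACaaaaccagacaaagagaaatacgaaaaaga
CLCN5 2138: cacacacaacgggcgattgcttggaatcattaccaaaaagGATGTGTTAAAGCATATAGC
CLCN5 2178: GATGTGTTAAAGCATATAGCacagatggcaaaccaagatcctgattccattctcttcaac
TRPC1 1508: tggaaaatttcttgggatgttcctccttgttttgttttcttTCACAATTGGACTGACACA
TRPC1 1549: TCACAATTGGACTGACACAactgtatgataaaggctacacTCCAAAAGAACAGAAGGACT
TRPC1 1589: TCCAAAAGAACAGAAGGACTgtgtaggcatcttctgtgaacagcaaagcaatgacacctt
KCNIP2 495: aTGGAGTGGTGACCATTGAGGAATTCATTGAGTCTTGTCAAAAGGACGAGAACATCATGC
KCNIP2 496: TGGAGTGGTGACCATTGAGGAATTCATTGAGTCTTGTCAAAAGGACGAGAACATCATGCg
KCNE2 152: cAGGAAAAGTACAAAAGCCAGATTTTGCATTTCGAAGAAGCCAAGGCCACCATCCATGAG
KCNE2 153: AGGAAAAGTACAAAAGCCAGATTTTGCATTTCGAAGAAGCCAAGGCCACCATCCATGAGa

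Of the 39 channel genes, 20 had a probe that could be tested and 19 did not. At 1 week, 4 of the 20 differed from control: CACNA1E, KCNC1 and KCNE1 rose and KCNK1 fell, against a background of 13.9% of all probes tested called in that comparison (9.75% higher and 4.13% lower). None was called at 2 weeks in limma, where 0.457% of all probes were called; 5 of the 20 had an unadjusted p under 0.05, against 7.78% of all probes. At 4 weeks 7 were called, with CACNA1E, KCNA3, KCNC1, KCNE1, SCN9A and TRPC1 higher and CLCN5 lower, against 8.58% of all probes (6.43% higher and 2.15% lower). At 8 weeks 5 were called, CACNA1E, KCNC1, KCNE1, KCNIP2 and TRPC1, all higher, against 12.8% (8.56% higher and 4.23% lower). Groups whose 4 arrays did not overlap those of the control were found for 3 of the 20 genes at 1 week, 2 at 2 weeks, 8 at 4 weeks and 6 at 8 weeks, against 16.8%, 5.69%, 17.7% and 22.5% of all probes. These comparisons share the 4 control arrays.

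The median difference of the 20 genes from control was 0.27 at 1 week, 0.14 at 2 weeks, 0.40 at 4 weeks and 0.25 at 8 weeks on the log2 scale. Over all probes tested the medians were 0.03, 0.04, 0.03 and 0.04. Since 11 of the 20 genes had passed the filter only through an operated group, their medians are no evidence of a general rise. Centring each array on its median in place of its 75th percentile moved the median of all probes to -0.11 at 1 week, -0.10 at 4 weeks and -0.12 at 8 weeks. With that centring the members called were 3 higher and 2 lower at 1 week, 6 higher and 2 lower at 4 weeks and 5 higher and 2 lower at 8 weeks. Over all probes the calls that were higher went from 2624 of 3734 to 1871 of 3709 at 1 week, from 1730 of 2308 to 1329 of 2472 at 4 weeks and from 2304 of 3442 to 1412 of 3641 at 8 weeks.

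The calls upward lay among the dim probes. The 7 genes called higher at any time had all passed the filter only through an operated group, as had 11 of the 20 genes in all, so that their number is no evidence of a general rise. The 8 genes above background on all 20 arrays (CACNA1A, CACNA1B, CACNA2D1, CLCN2, CLCN3, CLCN5, CLCN7 and KCNK1) had no call upward and 2 downward. Over all probes tested, 7.39% of those above background on every array were called higher at 1 week and 15.7% of the dimmer ones; at 4 weeks these shares were 3.9% and 12.8%, and at 8 weeks 6.14% and 14.7%. With background corrected by normexp in place of the scanner's processed signal, none of the 20 genes was called at any time, and the differences of KCNA3, KCNC1 and KCNE1 at 4 weeks and of KCNC1 and KCNIP2 at 8 weeks turned negative. That setting called 62, 0, 29 and 36 of all probes at 1, 2, 4 and 8 weeks. Without control replicates 1 and 2, those of high muscle level, 3 members were called at 1 week, 2 at 4 weeks and 2 at 8 weeks. This setting left 2 control arrays, and the smaller group and the muscle level cannot be told apart in it.

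**Figure D1:**
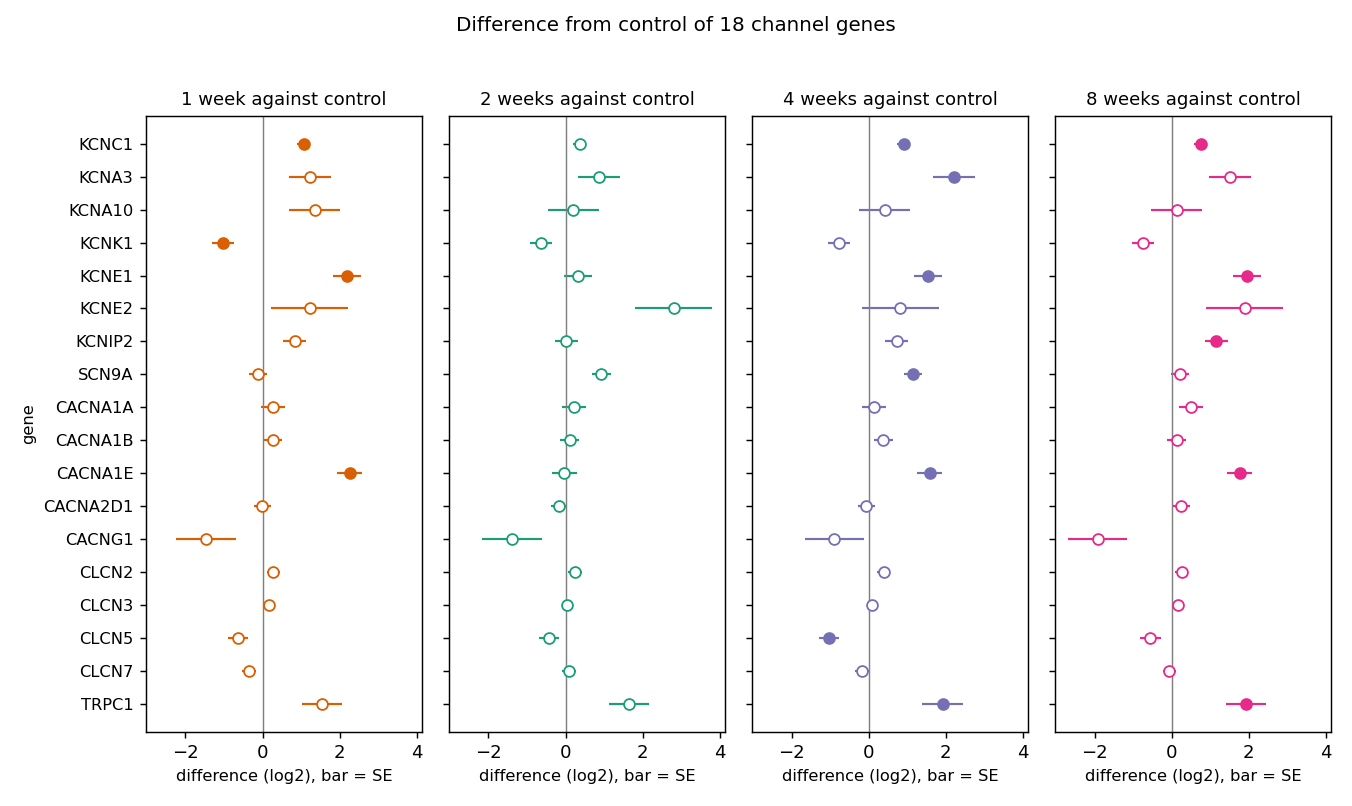
Difference from control (x axis, log2 units, bar = SE of the fit) of 18 of the 20 tested channel genes (y axis), with a panel for each time after surgery. Filled points are the 4, 0, 7 and 5 genes called at 1, 2, 4 and 8 weeks; those right of the line are higher after surgery.

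Voltage-gated potassium channels open on depolarisation and carry potassium out of the cell. Among their 10 genes, 3 had a tested probe and 2 of these were called at 1 or more times. Of all probes, 13.9%, 0.457%, 8.58% and 12.8% were called at 1, 2, 4 and 8 weeks. All 3 genes had passed the filter only through an operated group, so this count is no evidence about the family. KCNC1, a fast delayed rectifier known from fast-firing neurons, rose at 1, 4 and 8 weeks. Its level was -4.97, -3.96, -4.61 and -4.47 on the control arrays and -4.30, -4.20, -4.17 and -3.87 at 2 weeks, and no array of either group was well above background. At 1 week it was -3.50, -3.48, -3.46 and -3.32, at 4 weeks -3.60, -3.62, -3.59 and -3.54, and at 8 weeks -3.51, -4.02, -3.89 and -3.59. All 4 arrays at 1 week and at 4 weeks lay above all 4 control arrays, while 1 array at 8 weeks overlapped them. The difference from control was 1.06 ± 0.17 (SE) at 1 week (adjusted p 0.000304), 0.91 ± 0.17 at 4 weeks (adjusted p 0.00199) and 0.75 ± 0.17 at 8 weeks (adjusted p 0.00698). Since the control was dim throughout, the rise is bounded as at least 1.28-fold, 1.16-fold and 1.03-fold at these times. These bounds use all 4 arrays of a group, of which 2 at 1 week, 4 at 4 weeks and 3 at 8 weeks were above background. The dim 1-week arrays, replicates 2 and 4, had signals of 21.82 and 17.48, within the control's 13.07 to 24.7, so the 1-week bound rests partly on dim signal. The 2-week group differed by 0.37 ± 0.17 (adjusted p 0.621). With only the 2 groups in the fit the 8-week call was lost (adjusted p 0.0641). Only the probe at base 157 was tested. The other 5 probes of KCNC1, which start within 5 bases of each other near base 1512, reached background on 0 to 4 of 20 arrays. The probe at base 1515, above background on 4 arrays with signals up to 224.1, went the opposite way. Its differences from control, not tested, were -2.83, -1.56, -1.48 and -3.05 at 1, 2, 4 and 8 weeks. Those of the probe at base 1512, above background on 1 array, were 1.06, 0.08, -0.20 and -0.44.

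KCNA3, a delayed rectifier known from T lymphocytes, rose at 4 weeks. It was at -5.74, -5.91, -5.67 and -4.86 in the control, none well above background, and at -3.47, -3.07, -3.77 and -3.03 at 4 weeks, with 3 arrays above background and no overlap. At 1 week it was at -5.50, -5.73, -4.03 and -2.04, which straddled the control, at 2 weeks at -4.89, -4.35, -4.66 and -4.80, and at 8 weeks at -3.67, -4.00, -4.12 and -4.29. The 4-week difference was 2.21 ± 0.54 (adjusted p 0.0172), or at least 1.4-fold. It was 1.22 ± 0.54 at 1 week (adjusted p 0.146), 0.87 ± 0.54 at 2 weeks (adjusted p 0.793) and 1.52 ± 0.54 at 8 weeks (adjusted p 0.0758). The 4-week call was lost without 4-week replicate 2 (adjusted p 0.0541) or 4 (0.0545) and without control replicate 1 (0.0522) or 2 (0.0536), with differences of 2.09 to 2.15, and without control replicates 1 and 2 together (1.93, adjusted p 0.191). Among T cell markers, CD3E, CD4 and CD28 had no tested probe, and CTLA4, the only one tested, ranged from -4.14 to -1.79 in the control and from -3.63 to -2.42 at 4 weeks (difference 0.04, adjusted p 0.968).

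KCNA10, a voltage-gated channel regulated by cyclic nucleotides and named KCN1 on the array, was not called. It was above background on 3 arrays at 1 week, 1 at 4 weeks, 1 at 8 weeks and none in the control or at 2 weeks, and the 1-week difference was 1.35 ± 0.66 (adjusted p 0.183). The other 7 genes were not tested. KCNA1 had no array above background, KCND3 had 1, and KCNB2, KCND2 and KCNS3 had 2 with their best probe. KCNA1 and KCNB2 form delayed rectifiers, KCND2 and KCND3 carry transient currents, and KCNS3 is a silent subunit that modifies other channels. Both arrays on which the KCNB2 probe was above background were control arrays. Its level there was -5.57, -3.95, -3.69 and -4.47, against -6.93 to -5.03 at 1 week and -6.58 to -5.28 at 8 weeks, while the 4 probes that start 1 to 4 bases further along were above background on no array.

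Of the 3 tandem-pore potassium channel genes, which carry a background leak current, KCNK1 alone was tested and it fell at 1 week. Its level was -0.87, -0.60, -1.45 and 0.18 in the control, -2.07, -1.61, -1.75 and -1.45 at 1 week, and -1.50, -1.0, -1.13 and -1.68 at 2 weeks. At 4 weeks it was -1.08, -1.58, -1.81 and -1.32 and at 8 weeks -1.90, -1.53, -0.90 and -1.40. All 20 arrays were above background, and the lowest control array (replicate 3) met the highest array at 1 week. The difference was -1.03 ± 0.29 at 1 week (adjusted p 0.0232), -0.64 ± 0.29 at 2 weeks (adjusted p 0.607), -0.76 ± 0.29 at 4 weeks (adjusted p 0.114) and -0.75 ± 0.29 at 8 weeks (adjusted p 0.0983). The 1-week call was lost without 1-week replicate 1 (-0.92, adjusted p 0.0546), control replicate 2 (-1.01, 0.0582) or control replicate 4 (-0.75, 0.0618), without control replicates 1 and 2 together (-1.08, 0.112) and with only the 2 groups in the fit (adjusted p 0.115). The 5 probes of KCNK1, each shifted by 1 base, were all called lower at 1 week, with differences of -1.25 to -0.90. KCNK5, an acid-sensitive leak channel, and KCNK10, a stretch-sensitive one, were above background on no array.

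Auxiliary subunits of potassium channels alter the gating of the pore they join, and 2 of the 3 tested rose. All 3 had passed the filter only through an operated group, so this count is no evidence about the family. Of all tested probes that were not above background on every array, 15.7%, 12.8% and 14.7% were called higher at 1, 4 and 8 weeks. KCNE1, the partner of KCNQ1 in the slow delayed rectifier, was at -5.73, -5.22, -4.01 and -4.79 in the control and at -4.99, -3.99, -4.30 and -5.19 at 2 weeks, with no array above background in either group. It was at -3.16, -2.96, -2.87 and -1.99 at 1 week, at -3.49, -3.10, -3.97 and -3.02 at 4 weeks and at -2.49, -3.48, -2.99 and -2.93 at 8 weeks. Every array of these 3 groups lay above every control array, and all but 1 (4 weeks, replicate 3) were above background. KCNE1 differed from control by 2.19 ± 0.36 at 1 week (adjusted p 0.000488), 1.54 ± 0.36 at 4 weeks (adjusted p 0.0129) and 1.96 ± 0.36 at 8 weeks (adjusted p 0.00178). These are at least 2.1-fold, 1.34-fold and 1.79-fold, and the 2-week difference was 0.32 ± 0.36 (adjusted p 0.93). A second probe of the transcript, at base 997, was called at the same 3 times, with differences of 1.53, 1.18 and 1.33. Leaving out control replicate 1 ended the 4-week call of the first probe (1.28, adjusted p 0.055). Leaving out control replicates 1 and 2 together ended it too (1.01, adjusted p 0.239), along with the 8-week call (1.42, adjusted p 0.0664).

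KCNIP2, a calcium-binding partner of the KCND channels, rose at 8 weeks. It was at -3.64, -4.46, -5.01 and -4.38 in the control, with 1 array above background, and at -2.72, -3.36, -3.56 and -3.20 at 8 weeks, all above background and above every control array. At 1 week it was at -3.66, -4.35, -3.29 and -2.88, at 2 weeks at -4.52, -4.27, -4.50 and -4.12 and at 4 weeks at -3.39, -3.39, -4.03 and -3.78, ranges that met the control. The difference was 1.16 ± 0.30 at 8 weeks (adjusted p 0.016), 0.83 ± 0.30 at 1 week (adjusted p 0.0728), 0.02 ± 0.30 at 2 weeks (adjusted p 0.997) and 0.73 ± 0.30 at 4 weeks (adjusted p 0.147). The 8-week call was lost without 8-week replicate 1 (1.00, adjusted p 0.0617), without control replicate 3 (0.95, 0.0547) and under quantile normalization (0.95, 0.0503). The probe shifted by 1 base, KCNIP2 496, which shares 59 bases with KCNIP2 495, was called at 1, 4 and 8 weeks with differences of 2.00, 1.75 and 1.91. The 3 probes shifted by 3 to 5 bases were above background on no array.

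KCNE2, a related partner subunit, was not called and varied widely among replicates. Its tested probe was at -1.20, -2.95, -6.22 and -2.29 at 2 weeks and at -6.20 to -5.60 in the control, where no array was above background. The 2-week difference was 2.80 ± 1.00 (adjusted p 0.409). This probe, KCNE2 153, was above background on 8 arrays with signals up to 205.9, whereas KCNE2 152, which holds 59 of the same 60 bases, was above background on none and reached 9.351. KCNE4, an inhibitory subunit, was above background on no array.

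**Figure D2:**
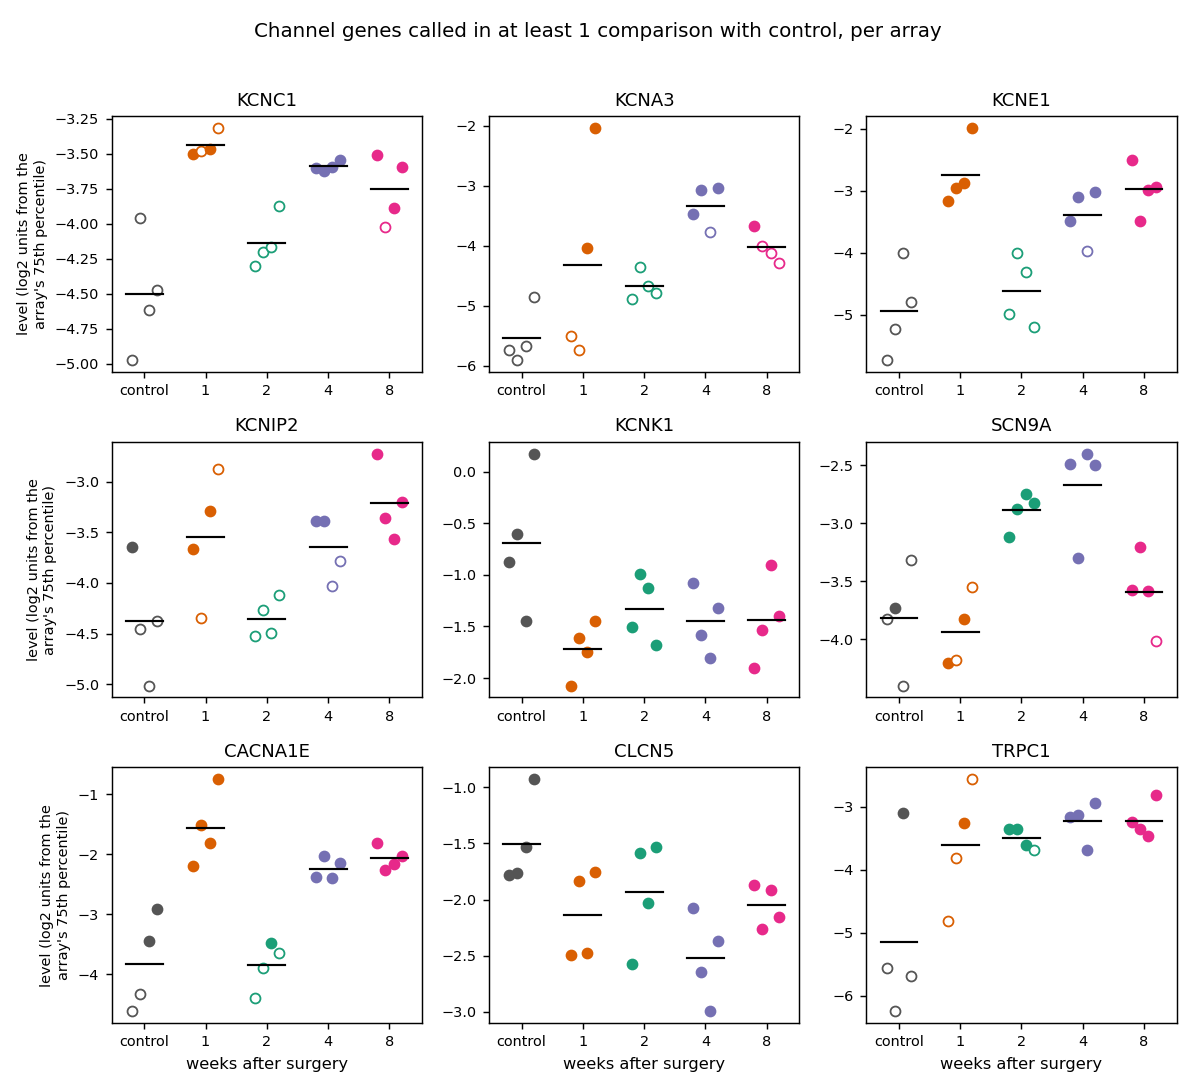
Level on each array (y axis, log2 units from the array's 75th percentile) of the 9 channel genes called in at least 1 comparison with control, by group (x axis: control and weeks after surgery). Filled points are well above background, open points are not, and bars are group means; for KCNC1 and KCNE1 no control or 2-week array was above background.

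SCN9A, a voltage-gated sodium channel known from pain-sensing neurons, was the channel gene that differed between operated groups scanned on the same day. It was at -3.83, -3.73, -4.40 and -3.32 in the control, with 1 array above background, and at -4.20, -4.18, -3.83 and -3.55 at 1 week, with 2. At 2 weeks it was at -3.12, -2.88, -2.75 and -2.82 and at 4 weeks at -2.49, -3.30, -2.40 and -2.50, with all 8 arrays above background, and at 8 weeks it was at -3.58, -3.20, -3.59 and -4.01. The arrays at 2 weeks lay above all control arrays, as did those at 4 weeks, with the lowest 4-week array (replicate 2) close to the highest control array. The difference from control was 1.15 ± 0.24 at 4 weeks (adjusted p 0.00544), -0.12 ± 0.24 at 1 week (adjusted p 0.774) and 0.22 ± 0.24 at 8 weeks (adjusted p 0.597). At 2 weeks, which shares the control's scan day, it was 0.93 ± 0.24 and missed the threshold (adjusted p 0.128); it passed without control replicate 4 and with array weights. Between operated groups, SCN9A was 1.27 ± 0.24 higher at 4 weeks than at 1 week (adjusted p 0.0104), a comparison in which 1.08% of all probes were called. The difference between 8 and 4 weeks, -0.92 ± 0.24, was not called (adjusted p 0.11); it was called without 4-week replicate 2 and with array weights.

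With only the 2 groups in the fit the difference of SCN9A between 4 weeks and 1 week was no longer called (adjusted p 0.12), and without control replicates 1 and 2 the 4-week difference from control was 1.19 (adjusted p 0.0522). Its other probe, SCN9A 5843, shares 30 bases with SCN9A 5813 and was above background on no array, with signals of 4.193 to 10.41 against 13.43 to 121.5. Beside these values, S100B of the nerve list differed from control by 1.34 at 1 week (adjusted p 0.104) and 1.14 at 4 weeks (adjusted p 0.203). Its level ranged from -0.50 to 0.72 in the control, -0.08 to 2.97 at 1 week and -0.21 to 0.37 at 2 weeks. At 4 weeks it ranged from 0.62 to 2.43 and at 8 weeks from -1.15 to 0.35. The highest group mean of S100B was thus at 1 week, where SCN9A differed from control by -0.12. CNMD of the cartilage list also differed most at 1 and 4 weeks (2.31 and 2.39), without a call. S100B was the only nerve marker tested, and its part in the SCN9A result was not tested.

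None of the other sodium channel genes was called. SCN1A, a neuronal pore subunit, was above background on 1 array, 2-week replicate 1 at -1.46, and at -7.02 to -4.94 on all others.

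CACNA1E, the pore of R-type voltage-gated calcium channels, rose at 1, 4 and 8 weeks and was close to the control at 2 weeks. Its level was -4.61, -4.32, -3.44 and -2.92 in the control, with 2 arrays above background, and -4.39, -3.90, -3.47 and -3.65 at 2 weeks, with 1. It was -2.19, -1.51, -1.81 and -0.75 at 1 week, -2.38, -2.03, -2.40 and -2.15 at 4 weeks and -1.80, -2.26, -2.16 and -2.03 at 8 weeks. These 12 arrays were all above background and above every control and 2-week array. The difference from control was 2.26 ± 0.33 at 1 week (adjusted p 0.000151), 1.58 ± 0.33 at 4 weeks (adjusted p 0.00588), 1.76 ± 0.33 at 8 weeks (adjusted p 0.00203) and -0.03 ± 0.33 at 2 weeks (adjusted p 0.996). The calls at 4 and 8 weeks were lost without control replicates 1 and 2 together (0.93, adjusted p 0.161, and 1.12, adjusted p 0.0723), which are the lower of the control values. A second probe, at base 8542, was above background on no array.

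Comparing operated groups with the 2-week group, which was scanned with the control, was added after these values were seen. CACNA1E was 2.29 ± 0.33 higher at 1 week than at 2 weeks (adjusted p 0.000164), 1.61 ± 0.33 higher at 4 weeks (adjusted p 0.00779) and 1.79 ± 0.33 higher at 8 weeks (adjusted p 0.00246). KCNE1, KCNC1 and KCNIP2 were above background on no 2-week array, so their differences from it are bounds. KCNE1 at 1 week exceeded it at least 2.06-fold (adjusted p 0.00235) and at 8 weeks at least 1.75-fold (adjusted p 0.00886), KCNC1 at least 1.27-fold at 1 week (adjusted p 0.0117) and KCNIP2 at least 1.49-fold at 8 weeks (adjusted p 0.0234). The dim 1-week arrays of KCNC1, replicates 2 and 4, had signals of 21.82 and 17.48, against 18.29 to 24.03 at 2 weeks. The KCNC1 bound thus rests partly on dim signal. SCN9A was lower at 1 week than at 2 weeks, with a difference of -1.05 ± 0.24 (adjusted p 0.00788). Of all probes, 11.4%, 4.29% and 8.57% were called in these comparisons at 1, 4 and 8 weeks. Each crosses the scan days, which cannot be told apart from the groups here either.

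Within the later scan day, the 20 genes showed no call between 8 weeks and 1 week in limma, where 0.0149% of all probes were called and none of the 20 had an unadjusted p under 0.05, against 14.6% of all probes. Between 8 and 4 weeks none was called either, against 0.565% of all probes, and SCN9A alone had an unadjusted p under 0.05, against 13% of all probes. In the F test for any difference among the 5 groups, CACNA1E, KCNC1, KCNE1, KCNIP2 and SCN9A were called, 5 of 20 against 15.8% of all probes, with adjusted p of 0.000119, 0.00108, 0.000643, 0.0279 and 0.00233. All 5 had passed the filter only through an operated group, so this count is no evidence about the channel genes as a set. The F test of the other called genes gave adjusted p of 0.0547 for TRPC1, 0.0627 for KCNA3, 0.0831 for CLCN5 and 0.104 for KCNK1.

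The other tested calcium channel genes were not called. CACNA1A and CACNA1B, the pores of P/Q-type and N-type channels of nerve endings, and CACNA2D1, the auxiliary subunit that binds gabapentin, were above background on all 20 arrays. Their differences from control ran from -0.18 to 0.51 over the 4 times, with SE of 0.21 to 0.31. The 5 probes of CACNA1A, each shifted by 1 base, stayed within -0.05 to 0.55 of the control at every time. A dimmer tested probe of CACNA1B, at base 7653, was above background on 4 of 20 arrays. It differed by 0.78, 0.43, 0.67 and -0.03 at 1, 2, 4 and 8 weeks, without a call. The other tested probe of CACNA2D1 differed by -0.29 at 2 weeks, also without a call.

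CACNG1 and CACNA1S, subunits of the calcium channel of skeletal muscle, were read beside the muscle list. CACNG1 was at -3.72, -1.51, -4.24 and -1.09 in the control and between -5.96 and -2.28 on the operated arrays. Its highest level was on control replicate 4, which had the lowest muscle level of the control arrays (-1.88). CACNA2D1, a member also known from skeletal muscle, differed from control by only -0.18 to 0.25. Its differences from control were -1.47, -1.39, -0.89 and -1.92 ± 0.77 at 1, 2, 4 and 8 weeks (adjusted p 0.214, 0.736, 0.522 and 0.113). CACNA1S was above background on a single array, control replicate 2 (-2.00, signal 95.89), which was also the array of the highest muscle level (4.20). On the other 19 arrays it was at -6.87 to -4.57. In the muscle list, 8, 4, 9 and 11 of the 11 tested genes were called lower at 1, 2, 4 and 8 weeks and none higher, with medians of -3.66, -3.84, -4.24 and -4.50.

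**Figure D3:**
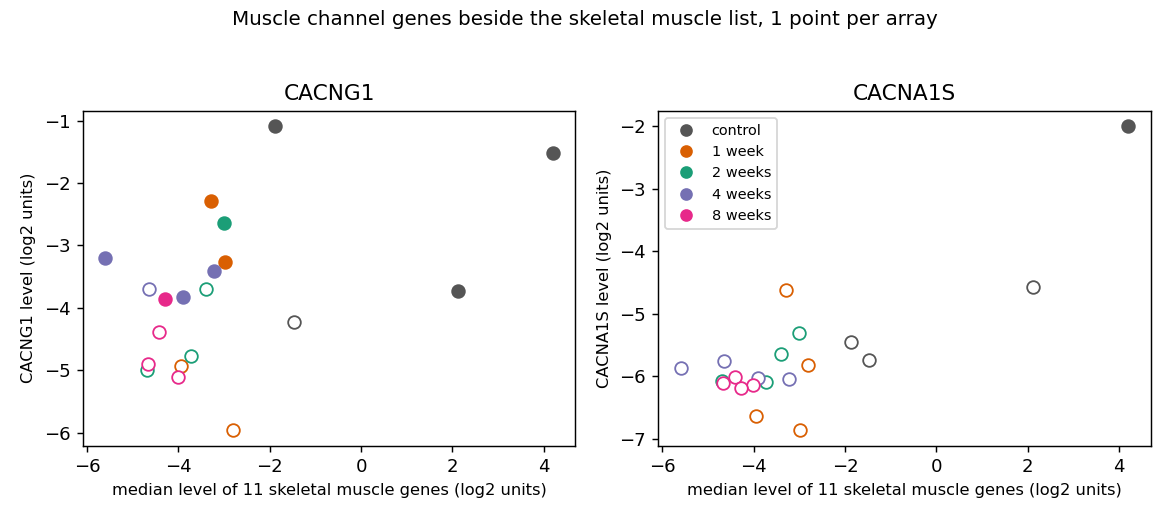
Level of CACNG1 (left) and CACNA1S (right; y axes, log2 units) against the median level of 11 skeletal muscle genes (x axis, log2 units) on each of the 20 arrays, coloured by group. Filled points are well above background; the only filled point of CACNA1S is control replicate 2, at a muscle level of 4.20.

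CLCN genes encode chloride channels of the cell surface and chloride/proton exchangers of endosomes and lysosomes, and 4 of the 6 were tested. CLCN5, an exchanger of endosomes, fell at 4 weeks. Its level was -1.78, -1.77, -1.53 and -0.93 in the control and -2.08, -2.65, -2.99 and -2.37 at 4 weeks, with no overlap. It was -2.49, -1.83, -2.48 and -1.76 at 1 week, -2.58, -1.59, -2.03 and -1.53 at 2 weeks and -1.87, -2.27, -1.91 and -2.15 at 8 weeks. All 20 arrays were above background, and the arrays at 1 and 2 weeks met the control range while those at 8 weeks lay below it. The difference was -1.02 ± 0.26 at 4 weeks (adjusted p 0.0217), -0.64 ± 0.26 at 1 week (adjusted p 0.114), -0.43 ± 0.26 at 2 weeks (adjusted p 0.784) and -0.55 ± 0.26 at 8 weeks (adjusted p 0.183).

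The 4-week call of CLCN5 was lost without 4-week replicate 2 (-0.98, adjusted p 0.0661) or 3 (-0.87, 0.0748) or control replicate 4 (-0.83, 0.0559). CLCN5 2178, which shares 20 bases with CLCN5 2138, differed by -0.31 at 4 weeks (adjusted p 0.617), and the mean of both probes by -0.66 (adjusted p 0.15).

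CLCN7, the exchanger of lysosomes and of the osteoclast's resorbing surface, was bright on every array, with signals of 4260 to 18380, and was not called. Its differences from control ran from -0.35 to 0.09 with an SE of 0.18, and its 5 probes gave differences of -0.39 to -0.32 at 1 week. CLCN2, a cell-surface channel, and CLCN3, an exchanger of endosomes, differed by 0.03 to 0.39 with SE of 0.18 and 0.11. The CLCN2 arrays at 2, 4 and 8 weeks all lay above the control arrays, which spanned -2.30 to -1.93, without a call (adjusted p 0.831, 0.187 and 0.373). CLCN6 was above background on no array.

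**Figure D4:**
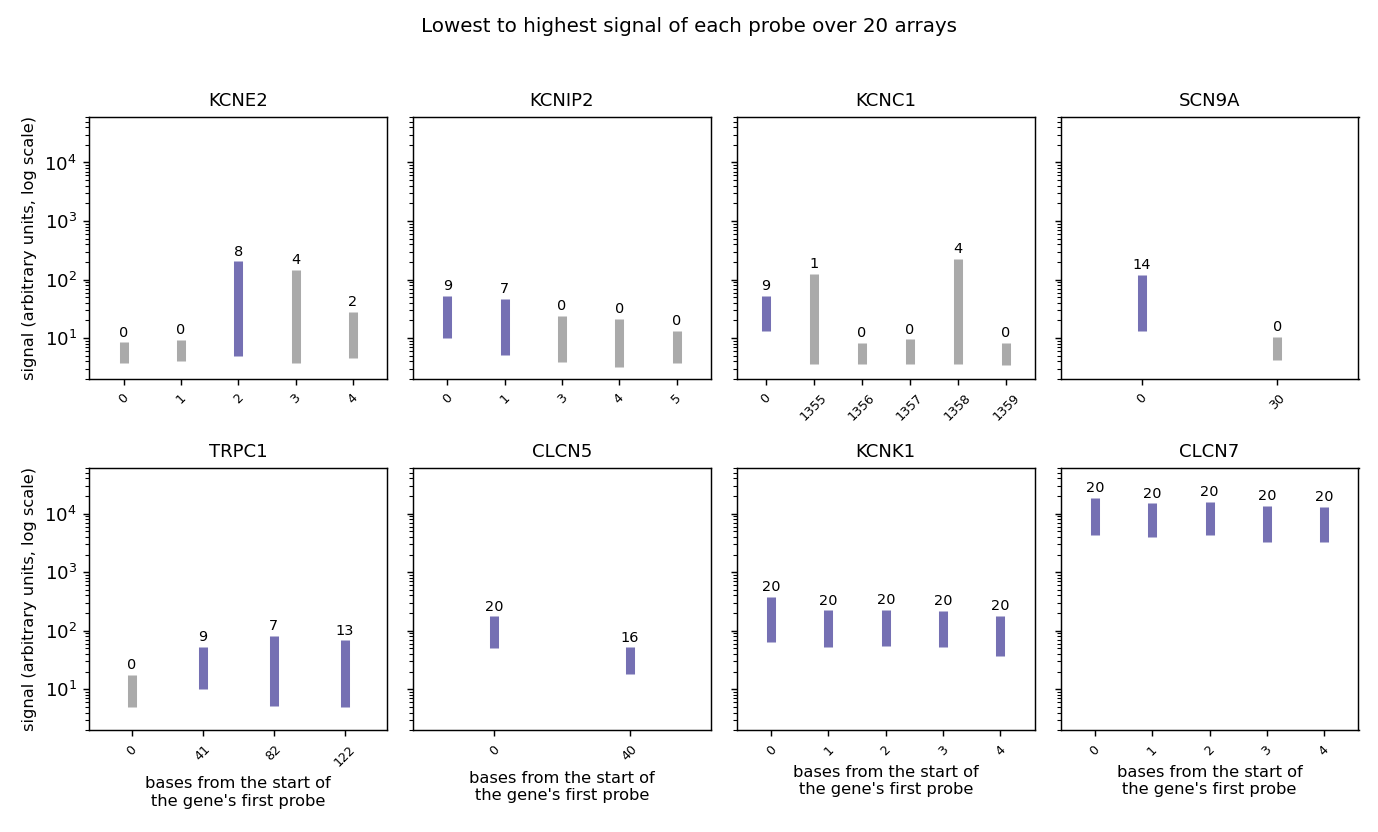
Lowest to highest signal over the 20 arrays (y axis, arbitrary units, log scale) of each probe of 8 channel genes, by the distance in bases from the gene's first probe (x axis). Coloured bars are tested probes, grey bars are not, and the number above a bar counts the arrays well above background; probes of KCNE2, KCNC1 and SCN9A differed from their neighbours, whereas the 5 probes each of KCNK1 and CLCN7 were above background on all 20 arrays.

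TRPC1, a cation channel linked to calcium entry, was the only tested member of the TRP family and rose at 4 and 8 weeks. It was at -5.57, -6.24, -3.10 and -5.68 in the control, where replicate 3 alone was above background. It was at -4.81, -3.82, -3.26 and -2.56 at 1 week, -3.36, -3.35, -3.60 and -3.69 at 2 weeks, -3.16, -3.14, -3.68 and -2.94 at 4 weeks and -3.24, -3.36, -3.47 and -2.81 at 8 weeks. All 16 operated arrays lay above control replicates 1, 2 and 4, while control replicate 3 lay among the highest of them. The difference was 1.92 ± 0.52 at 4 weeks (adjusted p 0.0296) and 1.92 ± 0.52 at 8 weeks (adjusted p 0.0216). At 1 week it was 1.53 ± 0.52 (adjusted p 0.0585) and at 2 weeks 1.64 ± 0.52 (adjusted p 0.302). Control replicates 1, 2 and 4 had dim signals of 10.25, 5.064 and 6.561, so the sizes of these differences rest partly on dim levels.

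The 4-week call of TRPC1 was lost without 4-week replicate 2 (1.89, adjusted p 0.0776) or 4 (1.82, 0.0844) and without control replicate 1 (1.78, 0.0895), 2 (1.55, 0.103) or 4 (1.74, 0.064). The 8-week call was lost without 8-week replicate 1 (1.93, adjusted p 0.0519) or 4 (1.79, 0.0599) and without control replicate 1 (1.78, 0.0666) or 2 (1.56, 0.0849). Without control replicates 1 and 2 together the differences were 1.16 at 4 weeks (adjusted p 0.367) and 1.17 at 8 weeks (adjusted p 0.348), and TRPC1 was also not called with only the 2 groups in the fit (adjusted p 0.0993 and 0.0796). TRPC1 1508 was called at 1, 4 and 8 weeks with differences of 1.01, 1.16 and 0.92. TRPC1 1549, which overlaps both printed neighbours, had differences of -0.15 to 0.37 at these times and was not called.

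The other 4 TRP genes were not tested. TRPC2, TRPC5 and TRPV1, the last being the capsaicin receptor of sensory neurons, were above background on no array, and TRPV6, an epithelial calcium channel, on 1 array at 4 weeks (replicate 4, -2.92). HCN3, a pacemaker channel subunit and the only HCN gene found by the rule, was above background on none. In all, 11 of the 19 untested genes were never above background with any probe. Without the filter on dim probes, TRPC5 was also called at 1 week, through a probe that was above background on no array.

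Beside the channels, 23 of 82 listed genes of other ion transport were found on the array and 15 were tested. At 1 week 4 rose and 3 fell, at 2 weeks 1 fell, and at 4 and at 8 weeks 3 rose and 3 fell, against 13.9%, 0.457%, 8.58% and 12.8% of all probes called at 1, 2, 4 and 8 weeks. Of all probes, 9.75%, 6.43% and 8.56% were called higher at 1, 4 and 8 weeks, and 4.13%, 2.15% and 4.23% lower. The medians of the 15 genes were -0.41, -0.04, -0.16 and 0.04, beside the medians of all probes given above. SLC12A3, a sodium-chloride cotransporter, was above background on no control or 2-week array and on every array at 1, 4 and 8 weeks. It was at least 2.47-fold higher than control at 1 week (adjusted p 2.14e-07), 1.85-fold at 4 weeks (adjusted p 3.52e-06) and 1.74-fold at 8 weeks (adjusted p 4.99e-06). SLC4A4, a sodium-bicarbonate cotransporter that was above background on all 20 arrays, rose by 2.29, 1.31 and 1.32 at these times (adjusted p 0.000629, 0.0443 and 0.0324). PLN, the inhibitor of the sarcoplasmic calcium pump, was above background on no control array, 3 arrays at 1 week and 1 at 4 weeks; it was called at both times (adjusted p 0.00631 and 0.0257), with a bound of at least 1.1-fold higher at 1 week and none at 4 weeks. ATP1B2, a sodium pump subunit, rose by 1.1 at 8 weeks (adjusted p 0.0432). SLC12A3, PLN and ATP1B2 had passed the filter only through an operated group, so the number of genes that rose is no evidence of a general rise. ATP2A1 and CASQ2, the calcium pump and a calcium store protein of muscle, are also in the muscle list. ATP2A1 fell at 1, 2, 4 and 8 weeks (adjusted p 0.00577, 0.0177, 0.000566 and 0.0038), with differences of -4.55 at 1 week and -4.95 at 8 weeks; no array at 2 or 4 weeks was above background, and the control was at least 24.3-fold and 27.9-fold higher. CASQ2 was above background on no operated array, and the control was at least 9.38-fold, 9.18-fold and 10.9-fold higher than 1, 4 and 8 weeks (adjusted p 0.00791, 0.00647 and 0.00374).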

How the data were processed

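RNA of the condylar cartilage of 20 rabbits was read on one-colour Agilent arrays. The deposited values are intensities in arbitrary linear units, made per the file headers and the submitters' processing notes with Agilent Feature Extraction 10.7.1.1, whose processed signal gives spots near background a small positive surrogate. Between 7957 and 14027 of 43803 spots per array carried the surrogate, so dim levels rest partly on it. Saturated spots numbered 0, and 5 to 62 outlier spots per array were left out. The authors' value table, also intensity, equalled the scanner values (linear, no centring), with the 4 columns of the 8-week group matched to other arrays of that group; its column medians were 28.28 to 90.22.

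Log2 signals minus the array's 75th percentile were fitted with limma 3.58.1 (R 4.3.3; lmFit, eBayes) as 5 group means over 20 arrays, with two-sided p-values adjusted by Benjamini-Hochberg. The fit was checked on simulated data. Median SD of the tested probes was 0.329 at 1 week and 0.2 to 0.237 in the other groups, so the shared spread can understate errors at 1 week. Bounds ("at least") set the brighter mean against the higher of the dim probe's level and the lowest level above background. The 4 arrays per group limit precision; the design text describes separate rabbits.

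Names came from the files and a RefSeq table (assembly mOryCun1.1); KCN1, TRPC1A and TRP5 of the files are KCNA10, TRPC1 and TRPC5 there. Results of some genes of the rule are not reported here, though they count in the totals; full statistics go to genes called in a comparison or among the 8 lowest F test p, and arrays are listed for those called against control. Of other ion transport genes, up to 6 of lowest F test p are given. Marker lists were cartilage, skeletal muscle, macrophage, T cell, nerve, endothelium, smooth muscle, erythroid, adipocyte and epithelium (no probe). Genes, lists and tests were chosen with earlier results of these data known.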

Additional observations from a re-analysis of the deposited data

Results flagged for a closer look

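In 6 of 100 group levels of the 20 tested genes 1 array stood apart from the other 3, where chance sets apart about 1 in 20, and 5 are given here. CLCN3 was at -1.23 on 8-week replicate 3, against -1.53 to -1.48. CLCN7 was at 4.57 on 2-week replicate 1, against 5.19 to 5.25. KCNE2 was at -2.44 on 4-week replicate 2, against -6.19 to -5.93, and at -6.22 on 8-week replicate 2, against -3.49 to -3.10. SCN9A was at -3.30 on 4-week replicate 2, against -2.50 to -2.40. A difference between time points under the same contrast was called for SCN9A, which was 1.27 higher at 4 weeks than at 1 week (adjusted p 0.0104 in limma); 4 of 4 arrays at 4 weeks lay above every array at 1 week.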

How the results depend on the processing

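Of 526 refits of a called gene's difference, 471 kept direction and side of the threshold, 50 lost the call and 5 reversed. With normexp the channel genes called went from 4, 7, 5, 1 and 5 to 0 at 1 week, 4 weeks, 8 weeks, 4 weeks against 1 week and in the F test. The 5 reversals were KCNA3 (-0.049), KCNC1 (-0.21) and KCNE1 (-0.076) at 4 weeks and KCNC1 (-0.15) and KCNIP2 (-0.085) at 8 weeks, all under normexp, which adds an offset of 50 to signals that for these genes were often lower. With only the 2 groups compared, 0 were called at 4 weeks against 1 week. Without control replicates 1 and 2 together, which left 2 control arrays, 2 were called at 4 weeks and 2 at 8 weeks. Array weights gave 1 call at 2 weeks and 1 at 8 weeks against 4 weeks, SCN9A both times, and 8 in the F test. The cause was not tested.

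Leaving out each array in turn gave 3 to 6 calls at 1 week, 0 to 1 at 2 weeks, 4 to 9 at 4 weeks, 3 to 6 at 8 weeks, 1 to 2 at 4 weeks against 1 week, 0 at 8 weeks against 1 week, 0 to 1 at 8 against 4 weeks and 4 to 8 in the F test. Calls fell to 4 at 4 weeks without 4-week replicate 2 or control replicate 1 and to 3 at 8 weeks without 8-week replicate 1. The F test gave 8 without 1-week replicate 1 or 4, and 4 against 1 week gave 2 without 1-week replicate 4 (KCNA3 added). The 2-week call was TRPC1 without control replicate 3 and SCN9A without control replicate 4.

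The replicate block left the counts at 4, 0, 7 and 5 against control, 1, 0 and 0 between operated groups and 5 in the F test. Same-numbered arrays did not pair: 8 of 40 correlations were over 0.1 (median 0.00836), and 6 of 20 arrays correlated best with their own number. Signal over background limits the 12 tested genes that were dim on some arrays.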

Other observations

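A further 19 channel genes stand on the array under older names that the prefixes do not catch, and 15 of them were tested. They were gathered, and the genes below chosen, after their values were seen. The refits described above did not cover them. Against control 4 rose and 1 fell at 1 week, none was called at 2 weeks, 3 rose at 4 weeks, and 4 rose and 1 fell at 8 weeks. Of all probes, 13.9%, 0.457%, 8.58% and 12.8% were called at these times, and 9.75%, 6.43% and 8.56% were called higher at 1, 4 and 8 weeks. KCNA5, a delayed rectifier of atrial and vascular muscle, was at -3.97 to -3.18 in the control and at -2.40 to -1.98, -2.93 to -2.63 and -2.54 to -2.28 at 1, 4 and 8 weeks, without overlap. Its differences were 1.29, 0.81 and 1.13 ± 0.16 (SE), with adjusted p of 3.8e-05, 0.00439 and 0.000227 in limma.

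KCNJ11, the pore of the ATP-sensitive potassium channel, was 1.17, 0.92 and 1.16 ± 0.19 higher at these times (adjusted p 0.000321, 0.00425 and 0.000506), and its arrays lay above the control range of -3.46 to -2.89. SCNN1A, a subunit of the epithelial sodium channel and above background on all 20 arrays, was 0.85, 0.84 and 1.18 ± 0.21 higher (adjusted p 0.0124, 0.0196 and 0.00139). Its control arrays, at -2.14 to -0.89, overlapped those at 1 week (-0.98 to -0.77) and at 4 weeks (-1.13 to -0.52). The arrays at 8 weeks (-0.63 to -0.50) lay above them. KCNA2 rose at 1 week (2.09, adjusted p 0.0232) and CACNB3, a calcium channel auxiliary subunit, at 8 weeks (0.46, adjusted p 0.0269). The KCNA2 arrays overlapped, at -2.98 to -1.02 in the control and -1.47 to 2.32 at 1 week. Those of CACNB3 did not, at 2.67 to 2.94 in the control and 3.07 to 3.45 at 8 weeks. HCN4, a pacemaker channel subunit, fell from -2.62 to -2.15 in the control to -4.49 to -3.54 at 1 week and -4.64 to -3.25 at 8 weeks. Its differences there were -1.46 and -1.39 ± 0.33 (adjusted p 0.00699 and 0.0107). HCN4 was above background on 2 of 4 arrays at each of these 2 times, so the sizes of these falls rest partly on dim signal. At 2 weeks, the group scanned with the control, these 6 genes differed by -0.43 to 0.28 and none was called; scan day and group cannot be told apart at the other times.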
